A study of Caenorhabditis elegans with 146 samples.

Results

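The -1 oocyte is the most proximal oocyte of the Caenorhabditis elegans gonad, next to the spermatheca, and the zygote (P0) is the same cell after fertilization. Single -1 oocytes and single zygotes were compared through the read counts of 21 of the 146 libraries of the series: 15 -1 oocytes and 6 zygotes. The members were the libraries whose sample label gives either stage and that the deposited quality table marks as used for analysis. A further 4 -1 oocytes and 5 zygotes carry the stage labels but are not marked as used. All cells came from well-fed gravid hermaphrodites of the strain AZ212, whose germline carries a histone H2B::GFP fusion driven by the pie-1 promoter, dissected in egg salt solution with tetramisole. The oocytes were cut from the gonad with the sheath cells around them, whereas the zygotes were taken from the uterus at the fusion of the pronuclei, with nothing seen attached. Libraries are named by worm as the labels give it, and the p-values measure the spread between these libraries. No worm gave both a used -1 oocyte and a used zygote.

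The hermaphrodite gonad is a tube of germ cells wrapped by somatic sheath cells. Proximal sheath cells are a contractile smooth muscle: a sperm-derived signal acts on them through cAMP, gap junctions couple them to the oocytes, and the oocyte's LIN-3 ligand acts on their LET-23 receptor and the inositol trisphosphate pathway to drive ovulation through the spermatheca, where fertilization takes place. Oocytes and the early zygote are thought to transcribe little or nothing, and the zygote runs on RNA stored in the oocyte.

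The libraries differed in ways that stage does not explain. They carried 1273040 to 31071637 reads on genes in the -1 oocytes and 2790035 to 73449925 in the zygotes. In batch A, all 10 -1 oocytes and the zygotes of worms 2, 4 and 9 shared a paired-end run (the shared run), and the zygote of worm unknown5 came from an earlier single-end run. In batch B, the 5 -1 oocytes were in 1 run and the 2 zygotes (worms unknownA and unknownB, whose stage the quality table gives as unknown) in another, so stage and run cannot be told apart there. The -1 oocytes of worms 25 and 32 and the zygote of worm 2 carried 2.42%, 2.197% and 1.16% of their TPM (the deposited transcript abundance) on the study's intestine genes and 5.47%, 2.52% and 1.68% on its stress genes, and the -1 oocyte of worm 25 also 2.06% on sperm genes. The summed level of 79 cytoplasmic ribosomal protein genes, in normalized CPM (read counts scaled by library size and by TMM factors, the trimmed mean of M values), ranged from 3047 to 416100 in the -1 oocytes and from 3496 to 249200 in the zygotes. The TMM factors ran from 0.398 (-1 oocyte of worm G) to 1.57 (zygote of worm 9). The 9 oocyte markers (among them oma-1, pos-1 and cpg-1) summed to 10620 to 123400 normalized CPM in the -1 oocytes and 8796 to 71930 in the zygotes, and the 6 markers of a transcribing embryo reached at most 5.55 in any zygote, with pes-10, med-1, tbx-37 and tbx-38 at 0 in all 6. The 8 sperm markers reached 189 in a -1 oocyte and at most 1.399 in a zygote, with 6 of the 8 at 0 in all zygotes. The 9 sheath and muscle markers summed to 480.5 to 4711 in the -1 oocytes and 0.713 to 81.4 in the zygotes, where ceh-18 was at 0 throughout, and the 5 spermatheca markers to 38.9 to 123500 and 29.2 to 169, where fkh-6 was. Of these 5, ule-3 and ule-5 belong to a set that the study picked from these libraries partly by their drop in zygotes. inx-12 and inx-13 had positive log2 fold changes, given below. What part RNA from sheath, muscle, spermatheca or sperm cells has in the results was not tested.

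Between -1 oocytes and zygotes the called changes were almost wholly losses. Of 7550 genes tested by edgeR's quasi-likelihood test with batch and detection rate as covariates, 428 (5.67%) were lower in zygotes and 12 (0.159%) were higher, 5.83% in all, at an adjusted p under 0.05 and a fold above 1.5. The decreases were large. Their median was -6.69 on the log2 scale, 270 of the 428 were of more than 6, and 105 of the genes had no read in any zygote. Those 105 passed the low-count filter through the -1 oocytes alone. The filter asks for reads in as many libraries as the smaller group holds. Genes read in -1 oocytes alone pass it more easily than genes read in zygotes alone. The increases lay between 0.99 and 1.55. In 56 genes, 0.742% of those tested, every zygote was below every -1 oocyte in normalized CPM, all 56 of them called lower, and in 0 genes was every zygote above every -1 oocyte. The called-lower genes held 10.6% of the TPM in the median -1 oocyte (range 2.94% to 29.5%) and 0.109% in the median zygote (0.0281% to 0.615%). These genes were picked by their drop in the same libraries, so this contrast is no independent evidence. In bulk lysates, fewer cells of a type and less RNA per cell cannot be told apart. The split depended on the covariates and on the filter. With batch alone, which called 8.57% of the genes (7.05% lower, 1.52% higher), 17.8% of 647 calls were increases, against 2.73% of the 440. Without the low-count filter 71 of 16211 genes were higher and 407 lower, so that 14.9% of 478 calls were increases. The shared run alone, the only run with both stages, gave 530 genes lower (6.57%) and 58 higher (0.719%) of 8062, 7.29% in all, among them 309 of the 428 and 5 of the 12. DESeq2 on the same libraries and covariates called 8.7% of the genes, 8.16% lower and 0.543% higher. Without the 4 libraries that stand apart (the -1 oocytes of worms 25 and 32 and the zygotes of worms 2 and unknown5), edgeR called 3.88% of 7758 genes, 297 lower (3.83%) and 4 higher (0.0516%). In that fit 193 of the 428 genes were no longer called lower, and 3 of the 12 were still called higher. limma on the TPM called 4.77%, 3.96% lower and 0.808% higher.

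**Figure D1:**
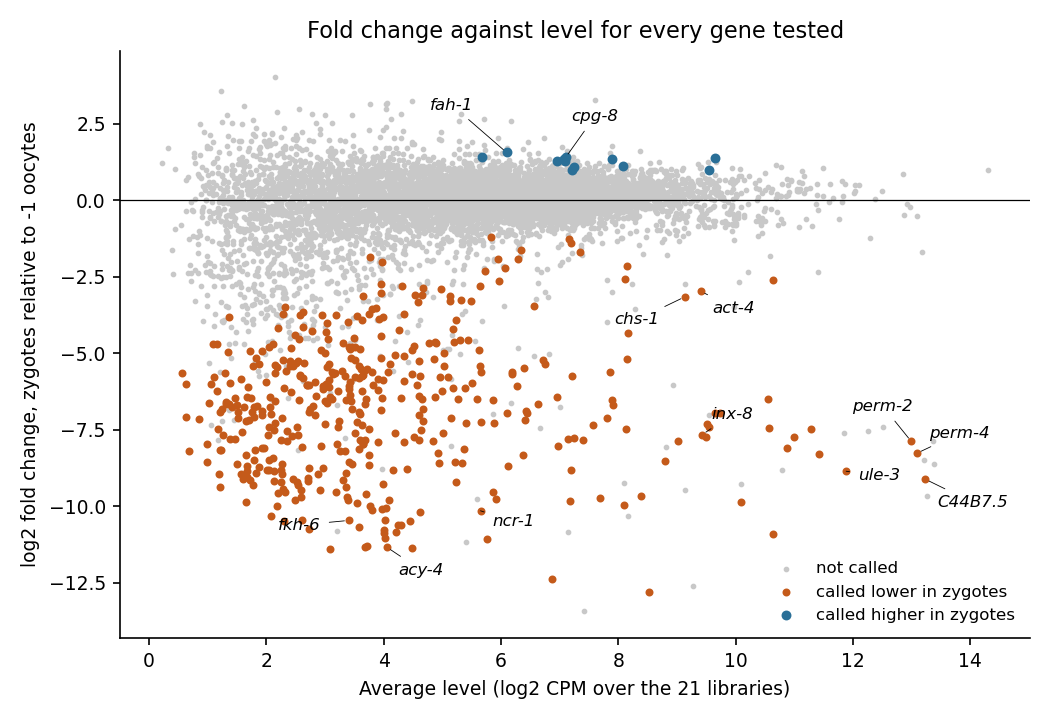
Each point is 1 of the 7550 genes tested, with its average log2 CPM over the 21 libraries on the x axis and its log2 fold change, zygotes relative to -1 oocytes, on the y axis. The 428 genes called lower (orange) reach down to -12.80, the value of F55B11.3 at an average log2 CPM of 8.52, and the 12 called higher (blue) lie no higher than 1.55.

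The genes through which sheath and oocyte signal to each other were lower in part. Of 23 tested members, 8 were lower in zygotes and 0 higher, beside 5.67% lower and 0.159% higher among all genes tested. The list's median log2 fold change was -1.71, beside -0.01 for all genes tested. The 8 were acy-4, let-23, inx-9, inx-8, ipp-5, itr-1, ceh-18 and plc-3. DESeq2 called 10 lower, and 6 of 24 were lower without the 4 libraries that stand apart.

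acy-4, the adenylyl cyclase required in the sheath for meiotic maturation (chromosome V, 5624727 to 5630892 in WBcel235), ranged from 6.48 to 49.98 normalized CPM around a median of 23.3 in the -1 oocytes and had no read in any of the 6 zygotes. It was at least 733-fold lower in zygotes, taking 3 reads over the group as the floor, and at least 183-fold lower when the floor leaves out the zygote of worm unknown5, which supplied 75% of the zygotes' summed library size (edgeR adjusted p = 6.7e-06). inx-8, a gap junction innexin of the sheath (chromosome IV, 11673843 to 11675635), lay between 160.5 and 2316 with a median of 960 in the -1 oocytes. In zygotes it was at 0 in 4 libraries, at 0.357 in worm 4 and at 40.7 in worm 2, so the groups did not overlap (log2 fold change -7.66, SE 1.29, adjusted p = 0.00135). Its partner inx-9 had a median of 177 (range 2.99 to 780.5) in the -1 oocytes and was at 0 in 5 of 6 zygotes, with 6.53 in the zygote of worm 2 (-7.84, SE 1.21).

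let-23, the EGF receptor, had a median of 33.3 normalized CPM (0.543 to 98.9) in the -1 oocytes and at most 0.754 in zygotes (log2 fold change -7.52, SE 1.03, adjusted p = 0.000105). itr-1, the inositol trisphosphate receptor, went from a median of 61.4 to 0.823 (-6.50, SE 1.505, adjusted p = 0.0114). ipp-5, an inositol polyphosphate phosphatase that acts in ovulation, and ceh-18, a POU homeobox gene of the sheath, had no read in any zygote and were at least 402-fold and 99-fold lower (101-fold and 24.8-fold with the floor without the zygote of worm unknown5). plc-3, a phospholipase C, fell least, by 2.86 (SE 0.80), and its call was lost when any of 7 libraries was left out (adjusted p up to 0.0999). The calls of the other 7 held whichever library was left out.

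The oocyte's side of the same pathways did not pass the test. lin-3, the EGF-like ligand, had a median of 103 normalized CPM (34.2 to 249) in the -1 oocytes and 130 in the zygotes, of which 5 lay between 98.1 and 148 and that of worm unknown5 at 4.51 (log2 fold change 0.16, SE 0.48, adjusted p = 0.940). The germline innexins inx-14, inx-21 and inx-22 had log2 fold changes of 0.65, 0.13 and -0.13, and vab-1, the ephrin receptor through which sperm proteins act on oocytes, one of -0.03. None of these genes was called.

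Muscle genes were lower in part as well. Among all genes tested 5.67% were called lower. Of 26 tested thin and thick filament genes 8 were called lower and 0 higher, with a median log2 fold change of -3.01. Of 18 attachment and basement membrane genes 3 were lower and 0 higher, with a median of -2.51. DESeq2 called 13 and 6 of them lower, and the shared run alone 15 of 26 filament genes. Without the 4 libraries that stand apart 4 of 26 and 4 of 20 were lower.

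act-4, an actin expressed mostly in muscle, separated the stages in every library: 305 to 2131 normalized CPM with a median of 623 in the -1 oocytes, 37.1 to 250.0 with a median of 85.5 in zygotes (log2 fold change -2.98, SE 0.56, adjusted p = 0.00193). The other actin genes act-1, act-2 and act-3 had fold changes of 0.08, 0.53 and 0.09 and were not called. Because the 4 actin genes are near-identical in sequence, how their reads were divided is uncertain.

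tni-1, a troponin I, had a median of 8.08 normalized CPM in the -1 oocytes and was at 0 in 5 of 6 zygotes (log2 fold change -6.18, SE 1.25, adjusted p = 0.00318). mup-2, troponin T, had a median of 34.4 (8.62 to 216) against 0.610 (0 to 9.18) in zygotes (-4.56, SE 1.06). lev-11, tropomyosin, had 74.4 (9.46 to 1454) against 1.86 (0 to 14.6) (-5.76, SE 1.43), a call lost without the -1 oocyte of worm G (adjusted p = 0.0594), as was that of the myosin light chain gene mlc-2 (-3.09, SE 0.79, adjusted p = 0.0612 without it). unc-22, which encodes twitchin, was lower by the same test (-7.11, SE 1.59), as were the troponin I genes unc-27 and tni-4 at adjusted p = 0.0478 and 0.0402, calls that were lost under 17 and 14 of the 21 omissions. The thick filament myosin genes unc-54 and myo-3 had medians of 15.9 and 3.89 in the -1 oocytes and 0.251 and 0 in zygotes but missed the threshold (adjusted p = 0.0830 and 0.127). pat-10, troponin C, ran from 0.886 to 1378 among the -1 oocytes, and its log2 fold change of -3.02 carried an SE of 1.69.

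mlc-4, a light chain of the myosin that cytokinesis needs, had a median of 219 normalized CPM in the -1 oocytes and 225 in the zygotes (log2 fold change 0.08, SE 0.36), and mlc-5, an essential light chain, medians of 89.4 and 72.4 (0.21, SE 0.42). Among the matrix genes, cle-1 (collagen XVIII) had a median of 90.7 (4.62 to 331) against 0 (0 to 4.10) in zygotes, without overlap (-7.20, SE 1.12, adjusted p = 0.000586). ost-1, the SPARC homologue, and nid-1, nidogen, were lower by 6.89 (SE 1.21) and 6.87 (SE 1.53) on the log2 scale.

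**Figure D2:**
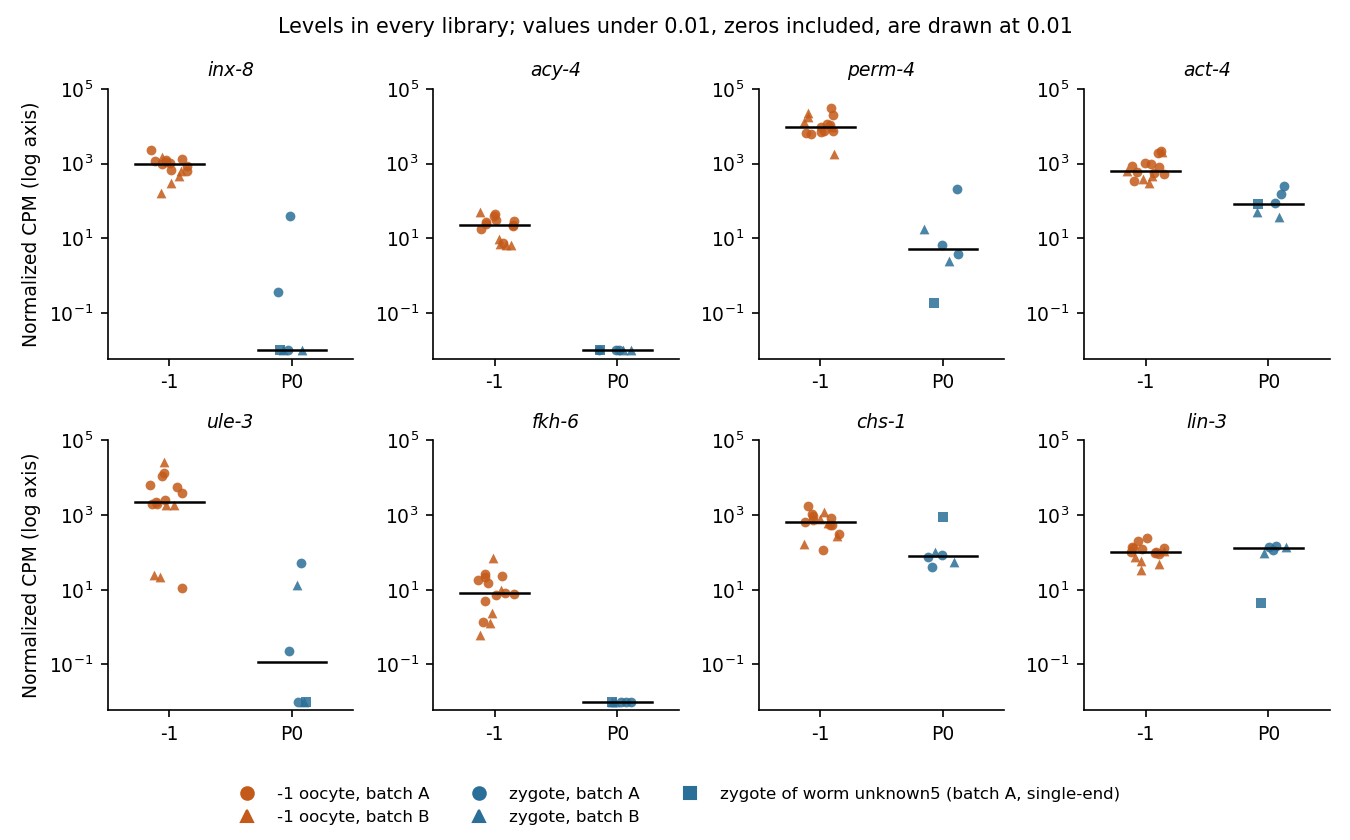
Normalized CPM on a log axis for 8 genes, with a point for each library, -1 oocytes on the left and zygotes (P0) on the right of each panel; lines mark medians and marker shapes the batch. The 8 genes were chosen with earlier results of these data known. inx-8, acy-4, perm-4, act-4 and fkh-6 do not overlap between stages, beside 0.742% of all genes tested with every zygote below every -1 oocyte. chs-1 overlaps only through the zygote of worm unknown5 at 886. lin-3 overlaps in all zygotes but that of worm unknown5, which lies below every -1 oocyte.

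The lowest list median was that of the spermatheca genes. The set comprises 25 genes that the study picked from these same libraries, partly by their drop in zygotes. Their rise from -2 to -1 oocytes and their level in -1 oocytes were criteria as well. Its direction is therefore no independent evidence. It is given here for its levels. All 24 matched members had negative log2 fold changes between -12.80 and -7.03, with a median of -8.73. 10 passed the edgeR test, while DESeq2 called all 24 lower, the fit with batch alone 15 and the shared run alone 4. The summed level of the set ran from 183 to 149300 normalized CPM in 14 -1 oocytes, with 800000 in that of worm G and a median of 33190, and from 0 to 1546 in the zygotes around 23.8. The highest zygote was that of worm 2, and without it the other 5 reached 86.0 at most.

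The -1 oocytes were not alike in these genes. ule-3, a secreted uterine lumen protein gene, lay between 1859 and 26050 normalized CPM in 12 of the 15 -1 oocytes, but at 11.0, 22.7 and 24.9 in those of worms 20, C and E. These 3 oocytes still had inx-8 at 1199, 467 and 1483, within the range of the rest. In zygotes ule-3 was at 0 in 3 libraries and at 0.233, 13.5 and 52.3 in the others, so the groups overlapped only through the 3 low oocytes (log2 fold change -8.86, SE 2.28, adjusted p = 0.0267), and the call was lost when the zygote of worm 4, 9, unknownA or unknownB was left out (adjusted p up to 0.0595). ule-5, another uterine lumen protein gene, ranged from 0.399 to 97330 with a median of 5294 in the -1 oocytes and was at 0 in 4 of 6 zygotes (-9.67, SE 2.81, adjusted p = 0.0509). F17E9.4 went from a median of 2297 to 0.233, a call lost under 5 omissions (adjusted p up to 0.0638), and F55B11.2 from 378.5 to 1.94, a call lost without the -1 oocyte of worm G (adjusted p = 0.0507).

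Of 16 tested contractility and junction genes of the spermatheca and uterus, 2 were lower and 0 higher, beside 5.67% lower among all tested. This list was chosen with earlier results of these data known. Its median was 0.03 (-0.43 with batch alone, -0.52 without the 4 libraries that stand apart and -1.46 in batch B). In the shared run alone 4 were lower and 1 higher. The 2 called over all 21 libraries were fkh-6, a forkhead factor of the somatic gonad with 0.620 to 70.3 normalized CPM in the -1 oocytes and no read in any zygote (at least 465-fold lower, or 116-fold without the zygote of worm unknown5 in the floor, adjusted p = 0.000892), and spv-1, a RhoGAP of spermathecal contractility (-8.75, SE 1.86). inx-12 and inx-13, innexins of the spermatheca, had log2 fold changes of 0.28 and 0.26, and fln-1, filamin, one of -0.81 with an adjusted p of 0.271.

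**Figure D3:**
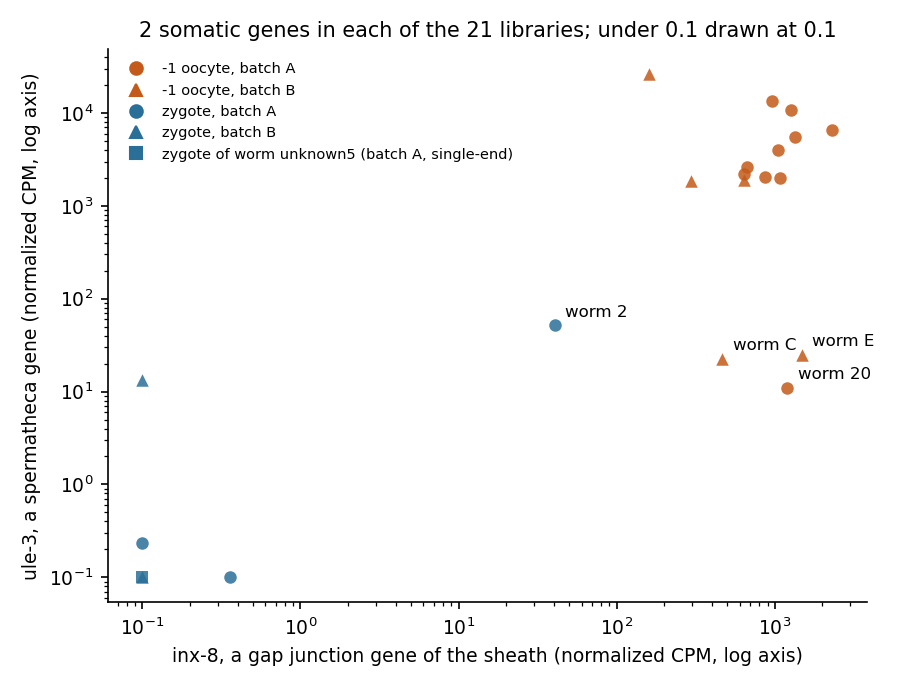
Normalized CPM of inx-8 (x axis) against ule-3 (y axis) in the 21 libraries, both on log axes. The -1 oocytes all sit at 160.5 or more of inx-8, those of worms 20, C and E at 24.9 or less of ule-3, and the zygote of worm 2 is the only zygote above 1 on both axes.

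Of the 12 largest decreases at an average log2 CPM of at least 5, 5 were in the spermatheca set and 7 in no list. W04A4.2 had a median of 37.7 normalized CPM in the -1 oocytes (0.272 to 492.7) and no read in any zygote, at least 5188-fold lower by its mean, or 1299-fold without the zygote of worm unknown5 in the floor (adjusted p = 0.00119). ncr-1, a homologue of the cholesterol transporter NPC1, ranged from 10.4 to 303 around 46.8 and was at 0 in 4 zygotes, with 0.503 at most (log2 fold change -10.15, SE 1.1, adjusted p = 6.7e-06). ZK930.2 went from a median of 57.1 (13.3 to 243) to 0 (0 to 1.00) (-9.75, SE 1.14), and C30E1.9 from 226 (2.59 to 1513) to 0 (0 to 2.51) (-9.96, SE 1.58). In these 4 genes no zygote reached the lowest -1 oocyte, a pattern that 0.742% of all genes tested had. The genes were picked by the size of their drop in the same libraries, so this is no independent evidence.

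F54F7.3, of the spermatheca set, and F54F7.2, C53B7.3 and C13G3.1 had log2 fold changes of -9.75, -11.06, -9.82 and -9.53 and kept their calls when any library was left out. F55B11.3, Y62H9A.3, D1086.11 and Y57G11B.5, all of the spermatheca set, which completed the 12 with -12.80, -10.91, -9.85 and -9.67, did not. F55B11.3 reached 5020 in a -1 oocyte but had a median of 17.4 there, and its adjusted p rose from 0.0443 to 0.184 without the zygote of worm unknownA. Among other genes called lower, fasn-1, fatty acid synthase, went from 105 to 0 (-8.82, SE 1.199, adjusted p = 0.000163) and tbh-1, the tyramine beta-hydroxylase that makes octopamine, from 841 to 0 (-7.74, SE 1.38). C44B7.5 had a median of 9199 normalized CPM in the -1 oocytes, but 2.92 in that of worm C and 97.8 in that of worm G, and 2.13 in zygotes (-9.12, SE 1.59, adjusted p = 0.00162).

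The genes called lower differed in their level in the preceding oocytes, given here untested as median TPM over 6 -3 and 13 -2 oocytes marked as used. Of the 428, 391 had a median of at least 1 TPM in the -1 oocytes, and 300 of these also in the -2 oocytes. inx-8 had 274, 548 and 536 TPM in -3, -2 and -1 oocytes and 0 in zygotes, perm-4 had 9107, 12470 and 11480, and tbh-1 161.5, 387 and 390. ule-3 had 0.725, 3.05 and 3314 and F55B11.2 had 0, 0 and 487. Both belong to the spermatheca set, which the study also picked by a rise from -2 to -1 oocytes. Their rise here is therefore no independent evidence. Of 168 genes called lower at 10 TPM or more in the -1 oocytes, 26 were under 10% of that level in the -2 oocytes. 52 of the 428 had at least 1 TPM in the median zygote.

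Of 21 tested genes for the eggshell and vitelline layer 5 were lower and 0 higher, beside 5.67% lower among all genes tested. The list's median log2 fold change was -1.26. DESeq2 called 9 lower, and 8 were lower without the 4 libraries that stand apart. perm-4 and perm-2, which the paper describes as genes for eggshell components, fell most. The paper reports that in a separate expression database both were highest in sheath cells. It sets them apart from egg-1 and egg-2, which it describes as made in the germline. Which cells the perm-4 and perm-2 RNA came from was not tested here. perm-4 had 1850 to 31110 normalized CPM with a median of 9647 in the -1 oocytes and 0.182 to 204 with a median of 5.25 in zygotes (log2 fold change -8.27, SE 1.11, adjusted p = 0.000105), and perm-2 a median of 7763 (1167 to 42310) against 7.48 (0 to 234.7) (-7.88, SE 1.24). Neither overlapped between the stages, and the zygote of worm 2 was the highest for both.

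The 3 other called eggshell genes fell less. chs-1, the chitin synthase, had a median of 649 normalized CPM (116 to 1746) in the -1 oocytes and lay between 41.2 and 101 in 5 zygotes, with 886 in that of worm unknown5 (log2 fold change -3.17, SE 0.71, adjusted p = 0.00677, and 0.0597 with batch alone). rme-2, the yolk receptor, had a median of 1436 (85.4 to 5323) against 127 to 408 in the same 5 zygotes and 4826 in that of worm unknown5 (-2.60, SE 0.77, adjusted p = 0.0449). Its call was lost when any of 13 libraries was left out (adjusted p up to 0.117), and with batch as the only covariate its adjusted p was 0.571. egg-4, a pseudophosphatase of the egg activation complex, fell by 1.26 (SE 0.35), a call lost without any of 6 libraries (adjusted p up to 0.0710).

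The remaining eggshell genes are reported as values. The chondroitin proteoglycan genes cpg-1 and cpg-2 had medians of 4673 and 6040 in the -1 oocytes and 3684 and 2147 in zygotes, with log2 fold changes of -0.49 (SE 0.63) and -1.70 (SE 0.94). The sperm receptors egg-1 and egg-2 had -2.37 (SE 1.37) and -2.73 (SE 0.98, adjusted p = 0.127), egg-3 had -0.72 and cbd-1, which anchors the vitelline layer, -1.25. gna-2, which makes the chitin precursor, had 0.57 (SE 0.35). In the shared run alone, without the zygote of worm unknown5, 10 of the 21 were lower and 0 higher. cpg-2 was at 26240 in that zygote and at 160.5 to 6080 in the other 5.

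The genes higher in zygotes numbered 12, and none separated the stages over all libraries. In order of size they were fah-1 (fumarylacetoacetate hydrolase, log2 fold change 1.55, SE 0.44), blos-9 (1.41), cpg-8 (1.39), smo-1 (SUMO, 1.38), gfl-1 (a YEATS-domain chromatin protein, 1.34), kbp-5 (a kinetochore protein, 1.33), hsb-1 (a binding partner of heat shock factor, 1.28), rpb-9 and rpb-7 (RNA polymerase II subunits, 1.26 and 1.07), F25H2.4 (1.11), rei-1 (a regulator of RAB-11, 0.99) and C07D8.6 (0.99). Their average levels were 5.67 log2 CPM or more.

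cpg-8, a chondroitin proteoglycan gene (chromosome V, 4691605 to 4692432), lay in batch A between 41.4 and 106 normalized CPM in the 10 -1 oocytes and at 145, 175 and 215 in the zygotes of worms 9, 4 and 2, with 102 in that of worm unknown5. In batch B it lay between 83.2 and 208 in the -1 oocytes and at 253 and 528 in the zygotes (log2 fold change 1.39, SE 0.29, adjusted p = 0.00377). It was higher in 5 of 6 zygotes than in any -1 oocyte of the same batch. rpb-9 was the only 1 of the 12 whose zygotes were above all -1 oocytes within both batches, at 74.4 to 92.7 against 33.4 to 74.36 in batch A, where the nearest libraries almost touched, and at 282 and 708 against 101 to 258 in batch B (adjusted p = 0.0169), where 3 of 7550 genes tested (0.0397%) had that pattern.

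cpg-8 and rpb-9 alone kept their calls whichever library was left out, and without the 4 libraries that stand apart their adjusted p was 0.0553 and 0.0602. rei-1 lost its call only without the zygote of worm 4 (adjusted p = 0.0644). The other 9 lost theirs under 6 to 19 of the 21 omissions, with adjusted p up to 0.0762 to 0.273. fah-1, the largest increase, had a median of 58.6 in -1 oocytes and 65.5 in the 3 zygotes of the shared run, and 30.3 against 171 in batch B, and its adjusted p was 0.229 in the shared run alone and 0.218 with batch as the only covariate. In the shared run alone cpg-8, smo-1, hsb-1, rei-1 and rpb-7 were called higher.

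**Figure D4:**
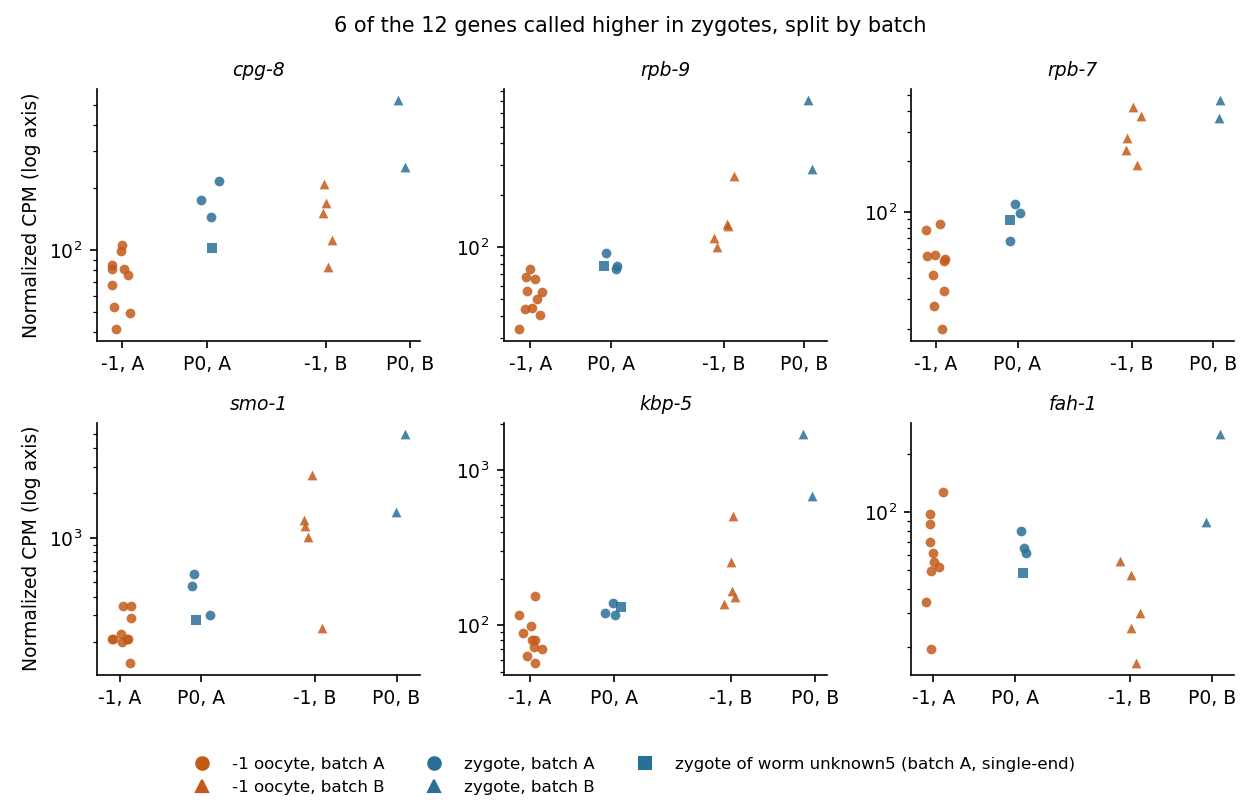
Normalized CPM on a log axis for 6 of the 12 genes called higher in zygotes, chosen after their values were seen, with a point per library split by batch and stage. In rpb-9 the zygotes lie above the -1 oocytes in both batches, while in fah-1 those of batch A lie within the range of the -1 oocytes, 19.5 to 127.5.

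RNAs that the oocyte stores for the embryo were not called with both covariates over all 21 libraries. Of 26 stored maternal fate genes tested, 30 genes of oocyte maturation and translational control and 16 P granule genes, edgeR, DESeq2 and limma each called 0. At an unadjusted p under 0.05 in edgeR there were 0, 1 and 0, beside 1048 of all 7550 genes. The shared run alone called 1 stored fate gene higher and 1 maturation gene lower. Without the 4 libraries that stand apart 1 P granule gene was lower. Their median log2 fold changes were 0.28, -0.05 and -0.17. The 95% interval lay within 2-fold in either direction for 9, 13 and 4 of them, beside 1048 of all 7550 genes.

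pos-1, a zinc-finger determinant of posterior fate, had a median of 2168 normalized CPM (1234 to 51800) in the -1 oocytes and 3267 (2729 to 18980) in zygotes (log2 fold change 0.84, SE 0.42, adjusted p = 0.390, and 0.0383 in the shared run alone). par-5, a 14-3-3 protein of embryonic polarity, had 0.38 (SE 0.37). oma-1 and oma-2, the oocyte maturation factors, had medians of 689 and 2053 against 606 and 1542 (0.07, SE 0.37, and -0.11, SE 0.39). lin-41, which holds oocytes back from maturation, showed the lowest value of its list, with a median of 198 (30.4 to 448) against 92.0 (32.6 to 117), and did not pass (-1.11, SE 0.49, adjusted p = 0.269), although it did with batch alone and in the shared run (adjusted p = 0.0316 and 0.0259). puf-5 and puf-3, oocyte Pumilio proteins, had -0.08 and -0.59.

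The translational repressor gld-1 had 0.14 (SE 0.36), the poly(A) polymerase gld-2 -0.05 (SE 0.44) and its partner gld-3 0.41 (SE 0.34). Of the P granule genes meg-1 had -0.07 and meg-3 -0.03, with meg-1 at 9.16 and 64.1 normalized CPM in the zygotes of worms unknown5 and unknownB against 497 to 874 in the other 4. cgh-1 and car-1, RNA helicase and LSm proteins of maternal mRNA granules, had -0.05 (SE 0.34) and 0.16 (SE 0.72).

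Among 65 tested cell cycle genes edgeR, DESeq2 and limma called 0 as well, and the shared run alone 2 higher and 1 lower. Over all 21 libraries 5 had an unadjusted p under 0.05 in edgeR, beside 1048 of all 7550 genes, and the median was 0.08. cdk-1 had a median of 322 normalized CPM in -1 oocytes and 528 in zygotes (log2 fold change 0.40, SE 0.34), cyb-1, cyclin B, 747 and 993 (0.79, SE 0.29, adjusted p = 0.152, and 0.0282 in the shared run alone), and cyb-2.2 652 and 366 (-0.41, SE 0.40). Of 27 mRNA decay genes 0 were called by the 3 tools, 2 had an unadjusted p under 0.05, and the median was 0.01.

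**Figure D5:**
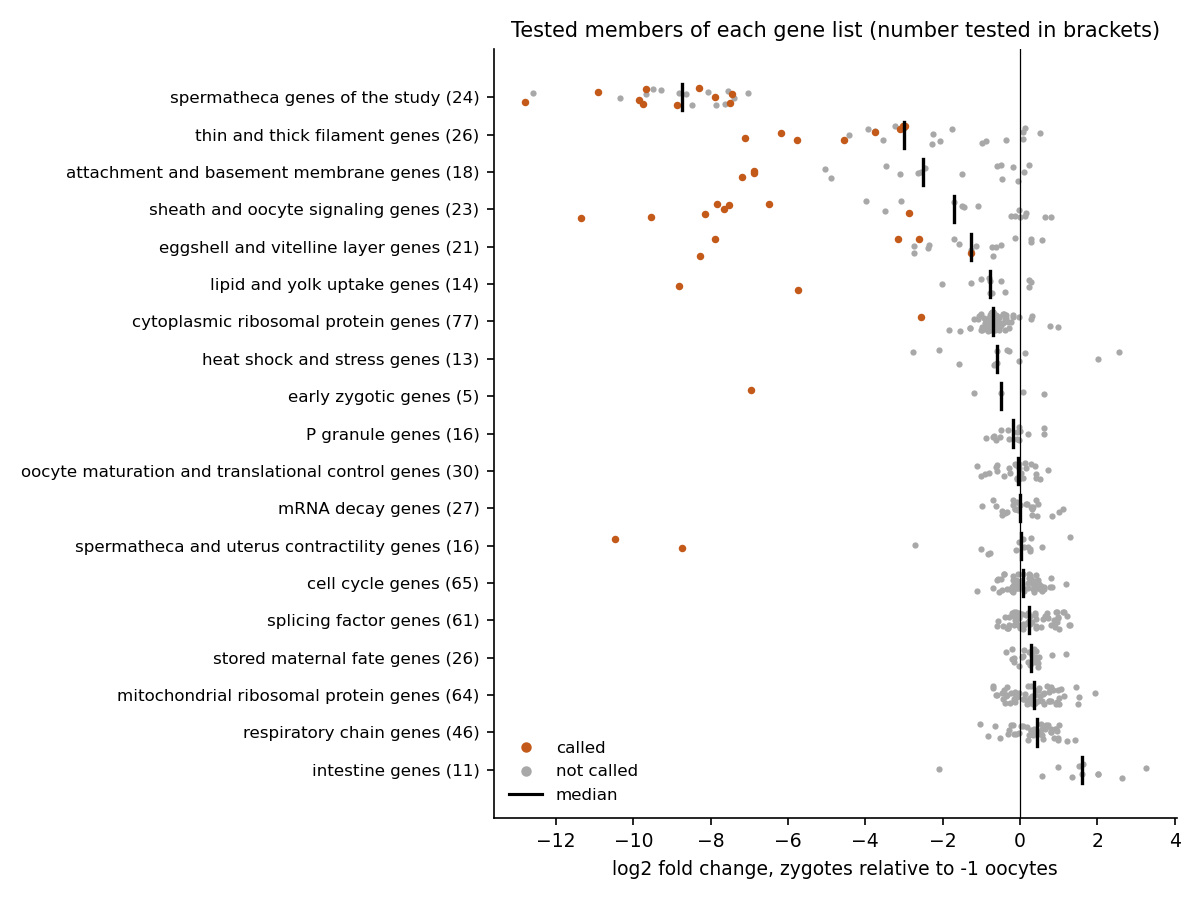
Each point is a tested member of a gene list at its log2 fold change, zygotes relative to -1 oocytes, orange where called; black bars mark the list's median. Medians run from -8.73 in the spermatheca set to 1.597 in the 11 intestine genes, of which 0 were called and whose median was -0.29 with batch alone and -0.39 without the 4 libraries that stand apart, and the stored maternal, maturation and cell cycle lists sit around 0.

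The 95% interval of the fold change lay within 1.5-fold in either direction for 6 of the 7550 genes. The best expressed were ctf-18, a replication factor C subunit, with a median of 172 normalized CPM in -1 oocytes and 198 in zygotes (log2 fold change 0.02, SE 0.26), cgp-1 (159 and 173, 0.05), ZC477.3 (145.5 and 186, 0.02), ddx-23, a splicing helicase (97.4 and 115, -0.02), and flcn-1, folliculin (87.9 and 116, 0.0001). The median SE of all genes tested was 0.55. The shared run alone gave 175 such genes.

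Of 77 cytoplasmic ribosomal protein genes 1 was lower, rpl-11.2, beside 5.67% of all genes tested. rpl-11.2 had a median of 118 normalized CPM (19.5 to 2661) against 26.3 (2.14 to 220) (log2 fold change -2.57, SE 0.69, adjusted p = 0.0274). Its call was lost under 4 omissions (adjusted p up to 0.0658), and rpl-11.2 has a close paralog that could share its reads. The list's median was -0.70, and -2.35 without the 4 libraries that stand apart, when 6 of 78 were lower. edgeR called 0 of 64 mitochondrial ribosomal protein, 46 respiratory chain and 61 splicing factor genes, with medians of 0.36, 0.45 and 0.22. At an unadjusted p under 0.05 there were 6, 5 and 10, beside 1048 of all 7550 genes. DESeq2 called 2, 1 and 1 of them higher, limma 1, 1 and 1, and edgeR with batch alone 3, 2 and 4. In the shared run alone 1 mitochondrial ribosomal protein gene was lower, and 4 splicing factor genes were higher and 1 lower.

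Of 21 matched genes that the early embryo is known to switch on, 5 were tested and 1 was lower, sdz-27, with a median of 861 normalized CPM (2.17 to 3282) in the -1 oocytes and 2.90 (0 to 30.9) in zygotes (log2 fold change -6.97, SE 0.94, adjusted p = 0.000113). Of 14 lipid and yolk genes tested, fasn-1 and acs-1, an acyl-CoA synthetase, were lower, beside 5.67% of all genes tested. acs-1 fell by 5.74 (SE 1.68), with a call lost under 16 omissions (adjusted p up to 0.165). The intestine list reached 10470 in the -1 oocytes and 2468 in the zygotes in summed level, the zygote of worm 2 being the highest, and edgeR, DESeq2 and limma called 0 of 11, with 1 at an unadjusted p under 0.05. Yolk genes had fold changes such as 1.597 for vit-2 (adjusted p = 0.715). Of the 3 neuron and pharynx genes tested, myo-5, a myosin heavy chain, had no read in any zygote and was at least 456-fold lower, or 114-fold without the zygote of worm unknown5 in the floor (adjusted p = 0.00522). Of 13 stress genes edgeR called 0, DESeq2 1 and limma 0, with 1 at an unadjusted p under 0.05. Whether the intestine and sperm reads have a part in any result was not tested.

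Among the most abundant RNAs, sip-1, a small heat shock protein gene of oocytes and embryos, was second in the -1 oocytes at 32520 ± 23570 TPM (SD, n = 15) and first in zygotes at 48790 ± 29350 (n = 6). ndk-1, nucleoside diphosphate kinase, stood at 20740 ± 9066 and 16770 ± 6459, and clec-87, a C-type lectin, at 16950 ± 7448 and 10910 ± 8961. None of the 3 was called (log2 fold changes 0.97, -0.22 and -0.51). Y37D8A.19, ZC373.2, Y62H9A.5, ule-5, C44B7.5 and perm-2 were among the 10 highest in the -1 oocytes only, Y37D8A.19 first at 35550 ± 32950 TPM. Of these perm-2 and C44B7.5 were called lower, while the other 4, all of the spermatheca set, had adjusted p between 0.0509 and 0.108. In zygotes their places were taken by F23A7.8, Y40A1A.6, rpl-12, F23A7.4, rmd-1 and Y82E9BR.3, at 7186 to 9793 TPM and with log2 fold changes of 0.29 to 1.76, none of them called. rrn-1.1, an rRNA gene, was in both sets and not tested.

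Genes of the X chromosome made up 143 (33.4%) of the 428 called lower and 943 (12.5%) of the 7550 tested. What lies behind this share was not tested. 15.2% of the X-linked genes tested were lower, against 2.58% on chromosome III, 2.61% on I, 4.90% on II, 6.03% on V and 6.30% on IV. The median log2 fold change was -0.29 on X and between 8.0e-05 and 0.06 on the autosomes. ncr-1, C30E1.9 and act-4 are X-linked.

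Reads on genes per spike-in read, a measure of RNA content where equal spike-in amounts were added, had a median of 117 (7.25 to 3294) in the -1 oocytes and 1138 (111 to 9181000) in zygotes. The batch-adjusted difference was 1.31 in log10 (exact permutation of stage within batch, two-sided, p = 0.00347). The zygote of worm unknown5 had 8 spike-in reads, too few to read its ratio as RNA content. Without it the difference was 0.545 (p = 0.0400, exact). That value still includes batch B, where stage and run cannot be told apart. In the shared run alone, with medians of 80.6 and 181, the difference was 0.497 (exact p = 0.101). The amounts added are not given in the sources used here.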

How the data were processed

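Single -1 oocytes and zygotes were profiled by single-cell RNA-seq with 2 library protocols over the project. The authors trimmed reads with Trim Galore, aligned them with HISAT2 to WBcel235 and deposited read counts per WS291 gene from HTSeq and TPM values from Salmon, whose total includes the spike-ins. The deposited quality table gives the fraction of TPM per gene class, used here as deposited, and marks the libraries used. For the TPM levels, the TPM shares of called genes and limma, the spike-ins were taken out and each library was rescaled. Members and gene lists were chosen with earlier results of these data known. From 46927 genes, 36 mitochondrial, 22 rRNA and 644 genes tracking msp genes (r above 0.99, 31 msp genes included) were left out, 700 in all. Counts passed filterByExpr (minimum count 10) by stage and were fitted with edgeR 4.0.16 (TMM, batch and share of genes detected as covariates) with Benjamini-Hochberg adjustment over all 7550 genes. A gene was called at an adjusted p under 0.05 and a fold above 1.5. Intervals are 95%. On simulated data with 7411 genes run, edgeR recovered 3 of 95 genes changed by 1 and 37 of 97 changed by 2 on the log2 scale, with 5 false calls, and DESeq2 9 and 61 with 31, so an uncalled gene may have changed.

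DESeq2 1.42.0, limma 3.58.1 on log2(TPM + 1), other scalings, filters, covariates and sets of libraries, and each library left out, were alternatives. The shared run alone, the set without 4 libraries, and the floor and the spike-in value without the zygote of worm unknown5 were chosen after seeing the data. Named genes were all those higher, the 12 largest decreases at an average log2 CPM of at least 5, up to 5 called members per list with those the paper discusses, the 10 highest by TPM per stage, and 5 with narrow intervals. tni-4, inx-14, inx-21, inx-22, vab-1, fln-1 and mlc-5 were named after their values were seen. Gene positions are in WBcel235. No per-sample column was left unused (0). A group at 0 was set to a floor of 3 reads over the group, which covers counting error only. R 4.3.3 and Python 3.11.15 were used.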

Additional observations from a re-analysis of the deposited data

Results flagged for a closer look

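In 9 of 84 groups of 6 zygotes, 1 library lay farther from the rest than a Dixon test at 0.625 allows. Chance gives about 1 in 20 where all libraries come from the same population. The groups mix batches A and B, so that rate need not hold here. The zygotes of worms unknownA and unknownB are those of batch B. The zygote of worm unknown5 had 73449925 reads on genes, and was highest for chs-1 at 886 and rme-2 at 4826 and lowest for lin-3 at 4.51 normalized CPM. The zygote of worm unknownA was highest for fah-1 at 253.5, oma-1 at 2182, gna-2 at 1294 and pos-1 at 18980. The zygote of worm unknownB was highest for the summed major sperm protein genes, at 6.14.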

How the results depend on the processing

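No paired analysis was possible because no worm gave both a used -1 oocyte and a used zygote. The 440 calls became 677 with all mapped libraries, 1008 with all 8 stages in 1 fit, 675 in the shared run without the detection covariate and 19 in batch B. The 12 increases became 115 with batch alone, 71 without a low-count filter, 317 with all mapped libraries, 22 in batch A, 0 in batch B (979 genes at an unadjusted p under 0.05 in either direction), 58 and 69 in the shared run with and without the detection covariate, 4 without 4 libraries, 313 with 8 stages, 41 with DESeq2 and 61 with limma. The 428 decreases became 19 in batch B and 695 with 8 stages. Increases were 31.1% of calls with 8 stages, 46.8% with all mapped libraries, 16.9% with limma and 14.9% without a filter. The median of all genes shifted to 0.52 with all mapped libraries, 0.25 with limma and -0.33 in batch B. The 6 genes with an interval within 1.5-fold (narrow intervals) became 12 under median-of-ratios factors, 79 with batch alone, 34 in batch A and 175 in the shared run. The log10 spike-in difference was 0.497 in the shared run (exact p = 0.101) and 0.554 with all mapped libraries (exact p = 0.454). Among these, the fits of the shared run and without 4 libraries were chosen after seeing the data. The cause of these shifts was not tested. Leaving out 1 library gave 323 to 449 calls, 4 to 19 increases, 316 to 439 decreases and 0 to 29 narrow intervals. The spike-in difference without the zygote of worm unknown5 was 0.545. The increases moved by over 1.5 times without the -1 oocytes of worms C (6), 15 (5), 21 (6), 23 (7), 25 (4), 28 (7) and 30 (19) or the zygote of worm 9 (7), and the narrow intervals without the -1 oocytes of worms E (12), 21 (3) and 25 (2) or the zygotes of worms unknownB (15), 2 (0), 4 (2), 9 (2) and unknown5 (29). Of the 440 calls, 257 decreases and 2 increases held in every omission. Of 58 named calls, 25 were lost without the 4 libraries, 15 in the shared run, 51 of 57 tested in batch B and 11 with limma, and 33 held in every omission. None of the 58 changed direction under these alternatives.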
